A study of Homo sapiens with 18 samples.

Results

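The comparison described here sets Farage against SUDHL4, both established human lines of diffuse large B cell lymphoma, before any treatment with the BCL6 inhibitor of the series. Its members are 6 of the 18 RNA-seq libraries of the series: 3 of Farage cells and 3 of SUDHL4 cells, all given the vehicle DMSO for 12 h and no inhibitor. No treated library entered the comparison, although a gene list given below was picked on earlier results of the inhibitor in this series. The series, which also holds the line SUDHL6, concerns cooperation of EZH2 and BCL6 in a Polycomb complex with CBX8 and BCOR, and each line has 3 DMSO libraries beside 3 libraries given 10 µM of the inhibitor. Of 23250 gene symbols, 11932 had at least 1 CPM (the read count scaled to a common library total) in at least 3 of the 6 libraries and were compared. Each group is a single line, so differences hold for these lines and not for lymphoma subtypes, and anything that was handled differently between the lines cannot be told apart from the lines. The labels do not say whether the 3 libraries of a line came from separate cultures, so the p-values rest on the spread among these libraries alone, and it may be technical.

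Diffuse large B cell lymphomas are grouped by the stage of B cell they resemble. In the germinal centre, where B cells mutate and select their antibodies, the repressor BCL6 holds down genes of activation, plasma cell differentiation and DNA damage response, and the methyltransferase EZH2, the enzyme of Polycomb repressive complex 2 (PRC2), does the same through methylation of histone H3. A B cell that leaves the germinal centre or is activated through CD40 switches on NF-kB and IRF4 and loses BCL6. Farage carries Epstein-Barr virus, whose proteins are known to act on the same NF-kB and interferon routes. SUDHL4 carries a gain-of-function mutation of EZH2 and the translocation that joins BCL2 to the immunoglobulin heavy chain locus. Transcripts of the virus were not analysed here.

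The lines differed at most genes by a small amount and at a large minority by at least 2-fold. A gene was called higher or lower in Farage when limma's test on log2(CPM + 1) gave an adjusted p under 0.05 and the difference was at least 2-fold on that scale, a log2 difference of 1. By this rule 1942 genes (16.3% of those tested) were higher and 1405 (11.8%) were lower in Farage, together 28.1%. With an adjusted p under 0.05 and no fold asked for, 5126 genes (43%) were higher and 4508 (37.8%) lower, together 80.7%, and in 81.7% of the genes tested the 3 Farage values did not overlap the 3 SUDHL4 values. Separation of the libraries alone therefore sets few genes apart, and the counts below use the 2-fold rule. The log2 difference was at least 3 for 474 of the genes called higher and at most -3 for 236 of those called lower. It ran from 9.22 for SRGN to -9.57 for HLA-DRA, around a median of 0.053 over all genes. Means below are given ± SD over the 3 libraries of a line. Because 1 CPM is added before the logarithm, the difference understates the change of weakly expressed genes. Of the genes tested, 862 passed the filter through Farage alone, with no SUDHL4 library at 1 CPM, and 530 through SUDHL4 alone; such genes had to differ. Beside a gene list, a member is counted as passed through 1 line when all 3 libraries of that line, and fewer of the other, reached 1 CPM; the number is given where it is 3 or more. The plot of line means shows the spread around the diagonal, and the plot of calls per gene list shows which groups of genes leaned to either side.

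**Figure D1:**
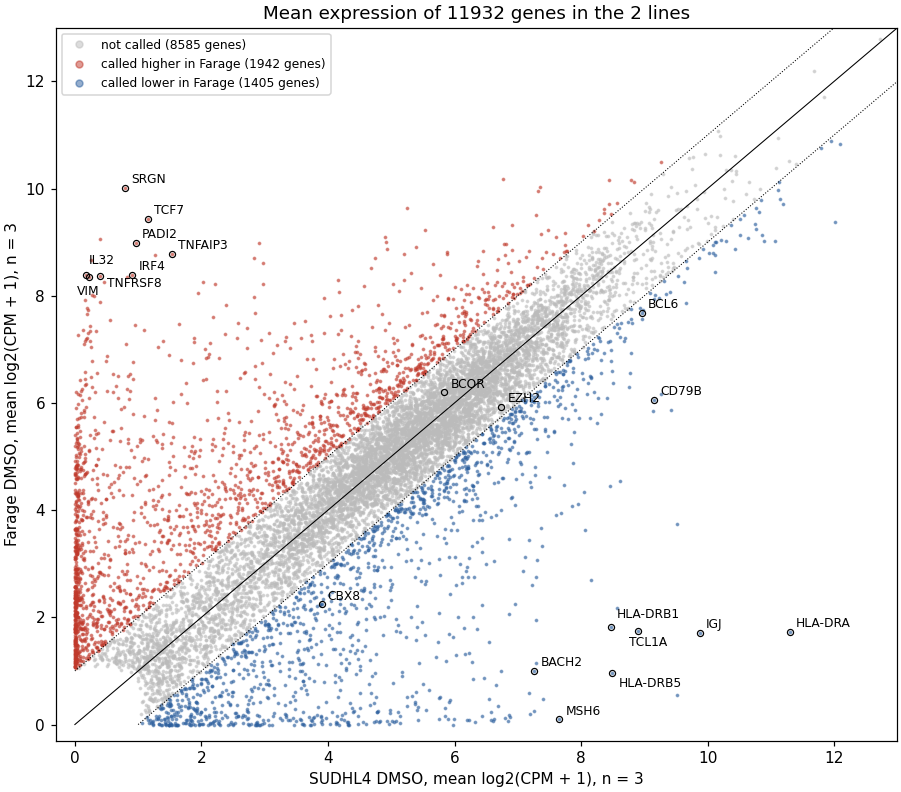
Mean log2(CPM + 1) of each gene in Farage DMSO (vertical axis) and SUDHL4 DMSO (horizontal axis), n = 3 libraries each, for the 11932 genes tested; the solid line marks equal levels and the dotted lines a 2-fold difference on that scale. Red points are the 1942 genes called higher in Farage and blue points the 1405 called lower; BCOR and EZH2 lie between the dotted lines, and SRGN and HLA-DRA lie farthest from the diagonal.

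**Figure D2:**
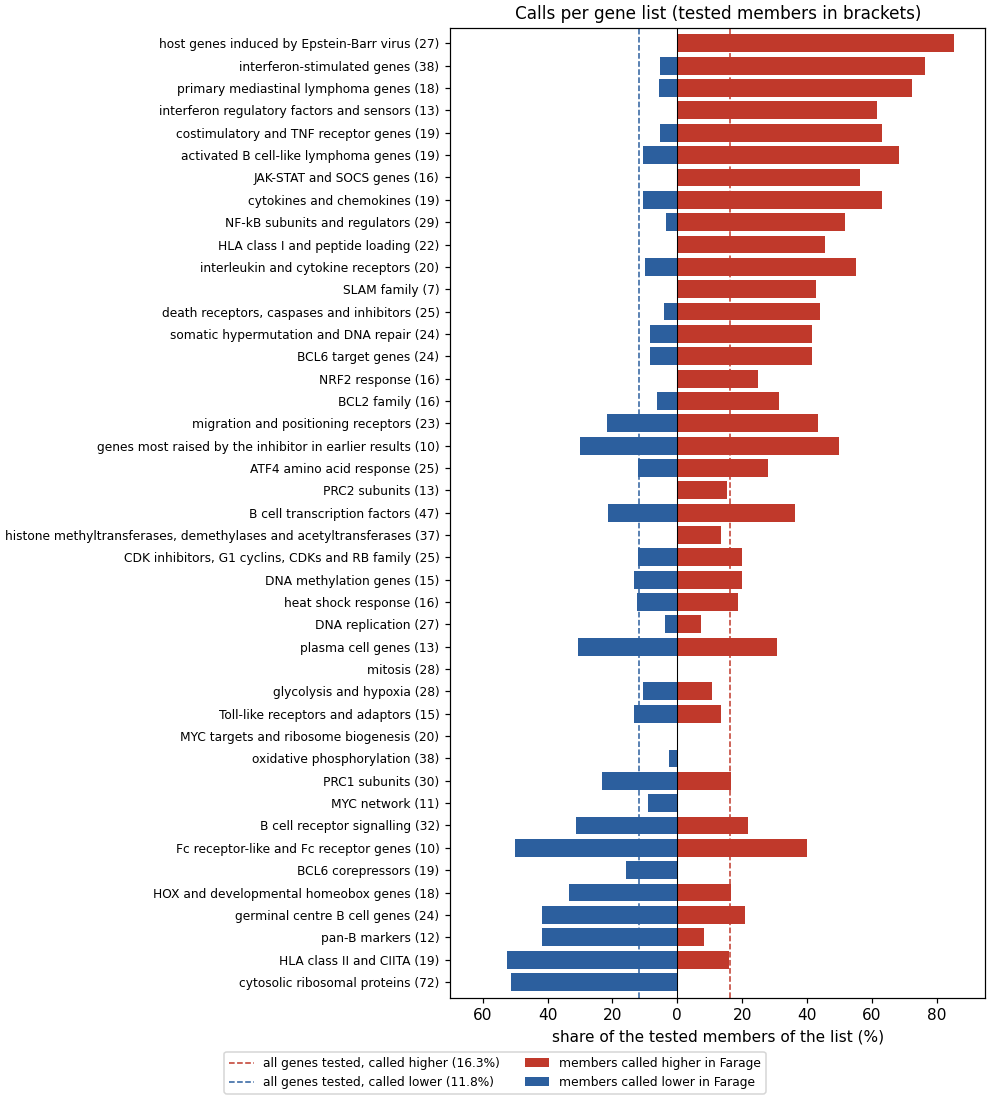
Share of the tested members of gene lists (horizontal axis, %) called higher in Farage (red, to the right) or lower in Farage (blue, to the left), with the number of tested members in brackets. The dashed lines mark the shares over all genes tested, 16.3% higher and 11.8% lower; the lists of host genes induced by Epstein-Barr virus and of interferon-stimulated genes stand at the top, and those of HLA class II and ribosomal protein genes at the bottom.

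Depth was alike in the lines: the listed genes held 21826367 to 24097618 reads per Farage library and 22097349 to 25492726 per SUDHL4 library, so that 3 reads correspond to about 0.1 CPM (0.0976 to 0.108 in Farage, 0.095 to 0.109 in SUDHL4). The first principal component of log2(CPM + 1) held 98.3% of the variance and separated the lines. Replicate 3 of SUDHL4 stood apart from its partners on the second component (1.0% of the variance): 35 genes were at least 2-fold above both partners in it and none 2-fold below, and they included the stress genes SLC7A11, ATF3, DDIT3, DNAJB4, HSPA1B and SQSTM1. Of these 35 genes, 9 were called higher and 5 lower in Farage, beside shares of 16.3% and 11.8% over all genes tested. Without that library 1959 genes were called higher and 1446 lower, and the 6 stress genes are given with and without it below. Both lines expressed the B cell markers (CD79A, MS4A1, PAX5 and EBF1, each above 50 CPM in every library). Markers of other cell types summed to little: over 12 myeloid genes the 6 libraries held 1.92 to 2.76 CPM in Farage and 0.855 to 1.37 CPM in SUDHL4, over 8 epithelial genes 0.455 to 0.532 and 0.0950 to 0.182 CPM, and over 9 NK cell genes 2.80 to 3.26 and 1.11 to 1.42 CPM. The T cell list summed to 175 to 186 CPM in Farage and 92.6 to 111 CPM in SUDHL4, nearly all of it the kinase LCK. CD3D, CD3G and CD4 stayed below 1 CPM in all 6 libraries, whereas CD3E, a chain of the T cell receptor complex, had no read in Farage and 1.57, 1.71 and 1.54 CPM in SUDHL4 and was called lower (log2 difference -1.38).

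The genes that give the series its subject were all expressed in both lines. BCL6 was measured at 207, 205 and 203 CPM in the Farage libraries, against 504, 526 and 461 CPM in the SUDHL4 libraries (log2 difference -1.27, SE 0.058, adjusted p = 1.55e-09), and was called lower in Farage. CBX8, a chromodomain protein of Polycomb repressive complex 1 (PRC1), stood at 3.48, 4.22 and 3.54 CPM in Farage and 15.2, 14.1 and 12.5 CPM in SUDHL4 (log2 difference -1.65, SE 0.096, adjusted p = 1.41e-08), also a call. EZH2 was lower in Farage by less than 2-fold, at 60.2, 59.0 and 60.4 CPM in Farage against 107, 103 and 107 CPM in SUDHL4 (log2 difference -0.81, SE 0.053, adjusted p = 4e-08). For the corepressor BCOR the values were 74.4, 71.1 and 72.1 CPM in Farage and 54.1, 63.0 and 52.4 CPM in SUDHL4, a slight excess in Farage (log2 difference 0.36, SE 0.072, adjusted p = 0.00071). The libraries of the lines did not overlap for any of these 4 genes, which holds for 81.7% of all genes tested. All 4 kept their side of the 2-fold rule in each alternative that kept this rule; with no fold asked for, EZH2 and BCOR pass the adjusted p alone, and limma's treat was read for the counts over all genes only.

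The genes farthest above SUDHL4 in Farage were near 0 in SUDHL4. SRGN, the core protein of serglycin, a proteoglycan of secretory granules, reached 921, 1131 and 1051 CPM in Farage against 0.912, 0.443 and 0.871 CPM in SUDHL4. The transcription factor TCF7, best known from T cells, followed with 685, 694 and 698 CPM in Farage and 0.985, 1.01 and 1.74 CPM in SUDHL4. The cytokine IL32 was at 334 and 0.129 CPM, the intermediate filament VIM at 326 and 0.171 CPM, and the peptidylarginine deiminase PADI2 at 507 and 0.957 CPM on average in Farage and SUDHL4. TNFRSF8, which encodes the activation receptor CD30, had 335, 333 and 321 CPM in Farage and 0.292, 0.412 and 0.234 CPM in SUDHL4. Next by size came the galectin LGALS3, the RNase family gene ZC3H12C, MDFIC, the adhesion receptor CD226, the ubiquitin hydrolase UCHL1, the phosphatase DUSP4, the potassium channel KCNMA1, HOPX and SLAMF7, at log2 differences of 7.79 to 7.49. The adjusted p of these 15 genes was at most 1.49e-09. Some of them were high in the third line too: UCHL1 averaged 219 CPM and VIM 151 CPM in SUDHL6 DMSO, so for those genes SUDHL4 was the line with little.

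At the other end stood HLA class II genes, an immunoglobulin joining chain and a mismatch repair gene. HLA-DRA, taken up with its family below, was followed by IGJ (JCHAIN), which links IgM or IgA units into polymers, at 2.18, 2.23 and 2.39 CPM in Farage against 970.1, 886 and 959 CPM in SUDHL4. MSH6, which recognises mismatched bases, was at 0.0650, 0.0709 and 0.0723 CPM in Farage and 208, 207 and 188 CPM in SUDHL4. TCL1A, a coactivator of AKT and an oncogene of T cell leukaemia that normal B cells also express, averaged 2.35 ± 0.258 CPM in Farage and 477 ± 47.4 CPM in SUDHL4. The remaining genes of the 15 farthest below SUDHL4 were CCDC85A, the neuronal tubulin TUBB3, the growth factor BMP7, the proteasome subunit of the testis PSMA8, the kinase MAPK10 (JNK3), the receptor phosphatase PTPRJ, the serine protease ST14, the adducin ADD2 and the imprinted gene MEST, at log2 differences of -6.99 to -6.49. Their adjusted p was at most 7.74e-14. SUDHL6 shared the high level of some, with 249 CPM of BMP7 on average.

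Of the germinal centre genes, more were lower in Farage than higher. Among 24 tested members, 10 were called lower and 5 higher, with a median log2 difference of -0.93; 2 of them passed the filter through 1 line alone. BACH2, a repressor that holds off plasma cell differentiation, had the largest deficit, at 1.11, 0.887 and 1.01 CPM in Farage and 146, 159.8 and 152 CPM in SUDHL4 (log2 difference -6.26, SE 0.075, adjusted p = 2.65e-14). MME, the surface peptidase CD10 that pathologists use to mark germinal centre origin, was at 17.3, 15.4 and 16.0 CPM in Farage and 263, 233 and 246 CPM in SUDHL4 (log2 difference -3.85, SE 0.067, adjusted p = 3.25e-13). These genes were not off in Farage, except that BACH2 stood at about 1 CPM. The transcription factor MYBL1 averaged 14.1 ± 0.425 CPM in Farage and 100.3 ± 6.9 CPM in SUDHL4. RGS13, which dampens chemokine signalling, averaged 94.1 ± 8.86 and 439.8 ± 38.4 CPM, and S1PR2, the receptor that confines B cells to the follicle, 51.1 ± 1.08 and 221 ± 13.7 CPM. Other members ran the opposite way: GCET2 (GCSAM), an inhibitor of germinal centre B cell motility, averaged 277 ± 10.6 CPM in Farage and 68.0 ± 3.48 CPM in SUDHL4, and the transcriptional cofactor LMO2 289.8 ± 15.4 and 107 ± 11.9 CPM. The kinase gene ITPKB and the mitotic kinase gene NEK6 were also called higher, at log2 differences of 1.63 and 1.11, so the germinal centre genes did not move as a block.

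Genes typical of the activated B cell-like subtype lay mostly on the Farage side. Of 19 tested, 13 were higher and 2 lower in Farage (median log2 difference 1.39, 5 passed through 1 line). IRF4, the factor that ends the germinal centre programme, had 342, 324 and 339 CPM in Farage and 0.766, 0.475 and 1.54 CPM in SUDHL4 (log2 difference 7.48, SE 0.15, adjusted p = 1.16e-12). Its partner BATF had 67.0, 70.2 and 63.2 CPM in Farage and 0.876, 0.602 and 0.971 CPM in SUDHL4 (log2 difference 5.23, SE 0.093, adjusted p = 3.69e-13). Both were near 1 CPM in every SUDHL4 library. The ectonucleotidase ENTPD1 (CD39) averaged 438 ± 14.9 CPM in Farage and 35.8 ± 3.62 CPM in SUDHL4, STAT3 244 ± 7.78 and 58.4 ± 0.573 CPM, and the kinase PIM1 71.4 ± 1.81 and 17.9 ± 1.45 CPM. FOXP1, a factor often high in the same subtype, went against the list at 1.43, 1.10 and 1.30 CPM in Farage and 51.3, 51.1 and 70.6 CPM in SUDHL4 (log2 difference -4.67, SE 0.12, adjusted p = 9.22e-12). The plasma cell list was split, with 4 higher and 4 lower of 13 (3 passed through 1 line). PRDM1, the master regulator of plasma cells, reached 2.83 ± 0.367 CPM in Farage and 0.0335 ± 0.058 CPM in SUDHL4, while XBP1, which expands the secretory pathway, was at 6.24 and 5.99 CPM and was not called.

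**Figure D3:**
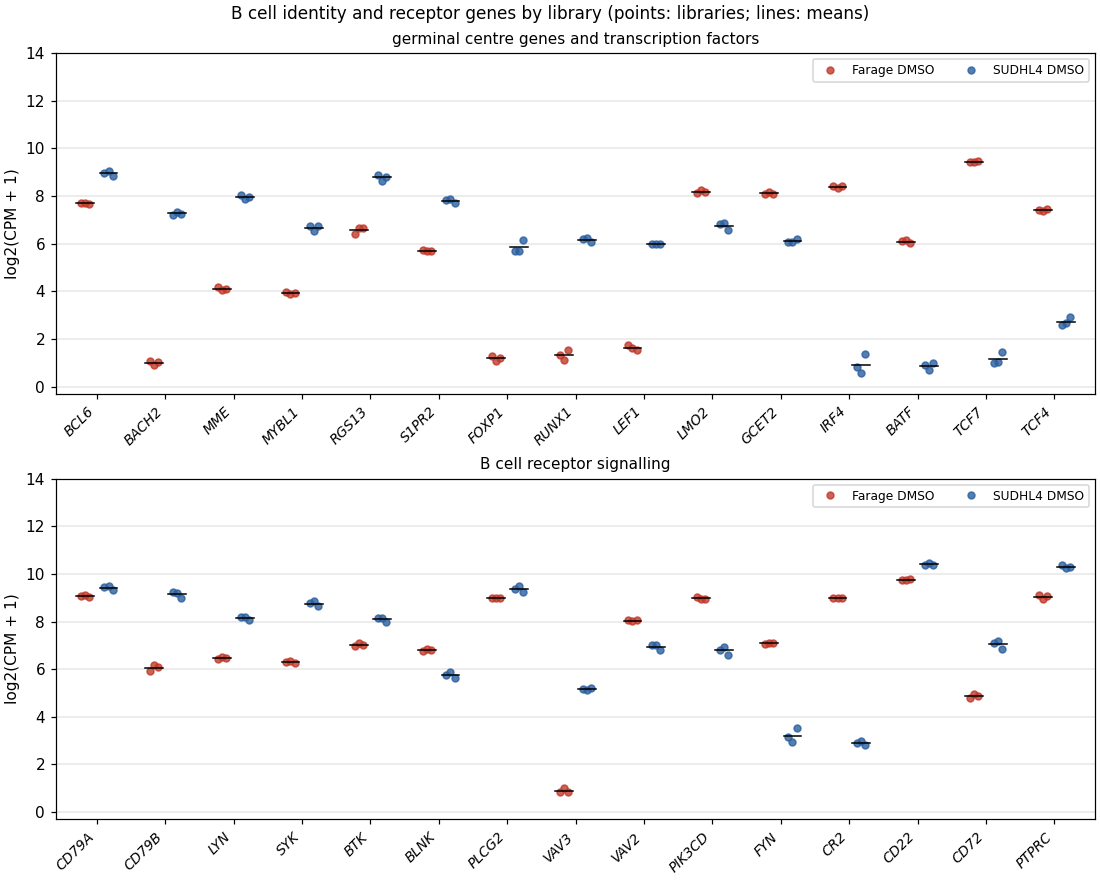
Log2(CPM + 1) of germinal centre genes and transcription factors (top) and B cell receptor genes (bottom) in each library, Farage DMSO left (red) and SUDHL4 DMSO right (blue) for every gene; points are libraries and black lines the means of 3. BACH2, FOXP1, RUNX1 and LEF1 sit near or below a value of 2 in Farage, and IRF4 and BATF do so in SUDHL4.

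Among transcription factors of B cells, related genes were in places divided between the lines. Of 47 tested, 17 were higher and 10 lower in Farage, with a median log2 difference of 0.17 (7 passed through 1 line). TCF7 was high in Farage and its relative LEF1 in SUDHL4, at 2.09 ± 0.199 CPM in Farage and 62.1 ± 0.347 CPM in SUDHL4 (log2 difference -4.35, SE 0.076, adjusted p = 3.1e-13). RUNX3 and RUNX1 were divided likewise. RUNX3 averaged 373 ± 6.08 CPM in Farage and 81.2 ± 1.5 CPM in SUDHL4, and RUNX1 1.52 ± 0.391 CPM in Farage and 70.8 ± 4.82 CPM in SUDHL4 (adjusted p at most 2.76e-12). TCF4, an E protein, averaged 167 ± 4.47 and 5.61 ± 0.765 CPM, MYB 154 ± 4.87 and 16.8 ± 1.38 CPM, and the repressor GFI1 39.5 ± 0.633 and 0.236 ± 0.0611 CPM. ZBTB32, BHLHE41 and ID2 were called higher as well, at log2 differences of 5.88, 4.68 and 3.04. On the other side BCL11A averaged 13.9 ± 0.64 CPM in Farage and 83.8 ± 8.91 CPM in SUDHL4, and ID3, an inhibitor of E proteins, 5.21 ± 1.15 and 25.5 ± 2.29 CPM. The core factors PAX5, EBF1, SPIB, POU2F2 and IKZF1 differed by less than 2-fold, with log2 differences of 0.20, 0.15, 0.28, -0.01 and -0.27.

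HLA class II genes present peptides to CD4+ T cells and are a constant feature of B cells; their transcription needs the coactivator CIITA and the RFX factors, which bind the X box of their promoters. HLA-DRA, HLA-DRB1, HLA-DRB5, HLA-DQA1 and HLA-DQB1 were at a few CPM or less in Farage. Of 19 tested genes of the list, 10 were called lower and 3 higher, with a median log2 difference of -2.63. HLA-DRA, the alpha chain of HLA-DR, had 2.76, 1.99 and 2.24 CPM in Farage against 2546, 2473 and 2517 CPM in SUDHL4 (log2 difference -9.57, SE 0.078, adjusted p = 4.68e-15). The beta chain HLA-DRB1 had 2.28, 2.45 and 2.86 CPM in Farage and 352, 356 and 353 CPM in SUDHL4 (log2 difference -6.66, SE 0.072, adjusted p = 1.58e-14), and HLA-DRB5 0.945 and 360.01 CPM on average. These and the other near-identical or polymorphic HLA genes share reads, and alleles far from the reference align less well, so the level of a single HLA gene is uncertain. HLA-DQA1 averaged 3.57 ± 0.659 CPM in Farage and 379 ± 13 CPM in SUDHL4, and HLA-DQB1 5.49 ± 0.12 and 284 ± 13 CPM. HLA-DQA2 ran the other way at a low level, with 1.89, 1.92 and 1.99 CPM in Farage and 0.146, 0.127 and 0.0670 CPM in SUDHL4 (log2 difference 1.40, SE 0.079, adjusted p = 1.1e-08). HLA-DP was lower as well, with HLA-DPA1 at 57.3 ± 1.23 CPM in Farage and 688 ± 30.1 CPM in SUDHL4, and HLA-DPB1 at 12.4 ± 0.924 and 736 ± 28 CPM. The chains of HLA-DO, which restrains peptide exchange, were lower too, with log2 differences of -3.73 for HLA-DOA and -3.50 for HLA-DOB. CD74, the invariant chain that guides class II molecules through the cell, was at 672, 676 and 654 CPM in Farage and 4111, 4224 and 4111 CPM in SUDHL4 (log2 difference -2.63, SE 0.051, adjusted p = 7.6e-13).

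The regulators and the peptide loader did not follow. CIITA was higher in Farage, at 251, 234 and 242 CPM, against 101, 109 and 82.8 CPM in SUDHL4 (log2 difference 1.31, SE 0.087, adjusted p = 4.93e-08). RFX5, RFXANK and RFXAP, the subunits of the RFX complex, averaged 165 ± 2.53, 52.5 ± 0.38 and 9.43 ± 0.66 CPM in Farage and 154 ± 11.9, 45.9 ± 2.69 and 17.1 ± 0.741 CPM in SUDHL4, none past 2-fold. HLA-DMA and HLA-DMB, which exchange peptides on class II molecules, averaged 98.5 ± 3.79 and 189.6 ± 14.1 CPM in Farage and 155 ± 4.21 and 151 ± 11.1 CPM in SUDHL4 (log2 differences -0.65 and 0.33). The protease CTSS, which degrades the invariant chain, was called higher at a log2 difference of 1.02, a call that ended with median-of-ratios scaling (log2 difference 0.98), edgeR (0.98) or DESeq2 (0.99) and without Farage replicate 2 or 3 (0.99 each). In SUDHL6 HLA-DRA averaged 1059 ± 143 CPM and CD74 2188 ± 224 CPM, so Farage was the line with little of them. Promoters of a member called lower (HLA-DQB1) and of a member not called (HLA-DMB) show that both kinds can carry the class II boxes. They are given here from the RefSeq reference (GRCh38.p14) and not from the lines. Each runs from 250 bases before to 50 bases after the gene start, in the direction of transcription. HLA-DQB1 lies on the minus strand at chr6:32666608-32666907 and HLA-DMB on the minus strand at chr6:32940979-32941278. Capitals mark matches, on either strand, to an X box written CCNAGNNACNGATG and to the core of a Y box written GATTGG.
HLA-DQB1: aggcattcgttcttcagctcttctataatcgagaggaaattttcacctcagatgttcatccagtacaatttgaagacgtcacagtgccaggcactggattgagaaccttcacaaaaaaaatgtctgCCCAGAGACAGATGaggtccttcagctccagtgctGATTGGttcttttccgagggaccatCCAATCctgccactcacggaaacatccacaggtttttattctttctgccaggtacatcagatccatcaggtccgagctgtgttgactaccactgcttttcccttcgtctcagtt
HLA-DMB: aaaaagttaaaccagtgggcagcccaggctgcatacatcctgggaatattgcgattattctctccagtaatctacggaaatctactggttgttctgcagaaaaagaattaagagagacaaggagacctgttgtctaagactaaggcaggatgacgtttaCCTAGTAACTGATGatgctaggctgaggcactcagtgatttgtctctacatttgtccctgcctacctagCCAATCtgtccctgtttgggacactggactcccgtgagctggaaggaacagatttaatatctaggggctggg
The X box string was found in 1 of 9 class II or CD74 genes called lower that had a promoter entry (HLA-DQB1) and in 2 of 6 members of the list that were not called (HLA-DMA and HLA-DMB). Over all genes tested that had an entry, 0.0945% held it. The Y box core was in 6 of those 9 genes, in 3 of the same 6 members not called (HLA-DMA, HLA-DMB and RFX5) and in HLA-DQA2, against 24.3% of all genes tested. A match is a string of letters and not a proven site, and a promoter without one may hold a variant of the box.

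**Figure D4:**
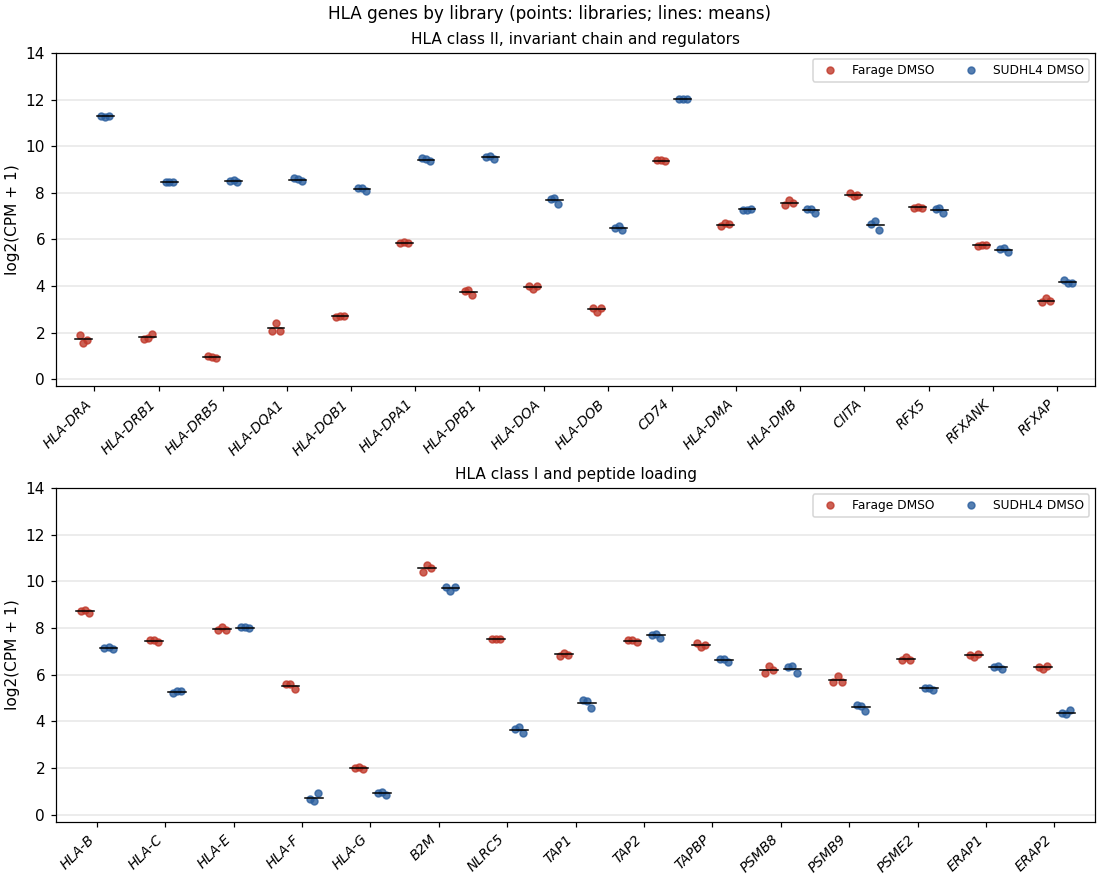
Log2(CPM + 1) of HLA class II genes, CD74 and their regulators (top) and of HLA class I and peptide loading genes (bottom) in each library, Farage DMSO left (red) and SUDHL4 DMSO right (blue) for every gene; points are libraries and black lines the means of 3. The means of HLA-DRA, HLA-DRB1, HLA-DRB5, HLA-DQA1 and HLA-DQB1 lie below 3 in Farage and above 8 in SUDHL4, while CIITA and the class I heavy chains HLA-B and HLA-C lie higher in Farage.

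HLA class I genes, which present peptides to CD8+ T cells, ran the other way. Of 22 tested, 10 were called higher and 0 lower (limma; 18 higher and 1 lower at an adjusted p under 0.05 alone), with a median log2 difference of 0.75. HLA-B averaged 419 ± 16.6 CPM in Farage and 139.8 ± 4.2 CPM in SUDHL4, and HLA-C 175 ± 7 and 37.7 ± 1.07 CPM. HLA-F had 47.2, 47.8 and 41.2 CPM in Farage and 0.584, 0.507 and 0.904 CPM in SUDHL4 (log2 difference 4.80, SE 0.1, adjusted p = 1.79e-12). NLRC5, the class I counterpart of CIITA, had 185, 183 and 186 CPM in Farage and 11.7, 12.6 and 10.1 CPM in SUDHL4 (log2 difference 3.90, SE 0.074, adjusted p = 6.46e-13). The peptide transporter gene TAP1 averaged 116 ± 5.51 CPM in Farage and 26.7 ± 3.68 CPM in SUDHL4, but its partner TAP2 175 ± 3.55 and 206 ± 12.1 CPM (log2 difference -0.23). B2M, the light chain of all class I molecules, was higher by less than 2-fold (log2 difference 0.85).

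NF-kB genes leaned to the Farage side. NF-kB dimers wait in the cytoplasm bound to inhibitors and, once freed, induce those same inhibitors together with survival and surface genes. Of 29 tested subunits and regulators, 15 were called higher and 1 lower (median log2 difference 1.25, 1 passed through 1 line). NFKB2, the precursor of the alternative pathway, had 515, 512 and 501 CPM in Farage and 29.2, 30.5 and 27.6 CPM in SUDHL4 (log2 difference 4.09, SE 0.055, adjusted p = 5.19e-14). Its partner RELB averaged 125 ± 8.33 CPM in Farage and 29.1 ± 1.87 CPM in SUDHL4, and NFKB1 301 ± 4.24 and 126 ± 8.65 CPM. RELA and REL differed by less than 2-fold (log2 differences 0.43 and 0.42), so within the subunits the called differences were those of NFKB1, NFKB2 and RELB. Several inhibitors were called higher. TNFAIP3 (A20), the ubiquitin-editing brake of NF-kB, had 455, 431 and 434 CPM in Farage against 1.93, 1.90 and 1.88 CPM in SUDHL4 (log2 difference 7.25, SE 0.06, adjusted p = 4.68e-15). NFKBIA averaged 223 ± 5.29 CPM in Farage and 21.2 ± 1.25 CPM in SUDHL4, NFKBIE 130.5 ± 6 and 25.9 ± 1.44 CPM, and the nuclear cofactor NFKBIZ 89.2 ± 0.649 and 0.812 ± 0.349 CPM. The inhibitor NFKBIB was not called (log2 difference 0.41). The adaptor TRAF1 had 522, 565 and 553 CPM in Farage and 31.1, 31.1 and 24.8 CPM in SUDHL4, and the ubiquitin ligase BIRC3 averaged 798 ± 33.2 and 36.9 ± 2.55 CPM. MALT1, a protease of the route from the B cell receptor to NF-kB, was called higher at a log2 difference of 1.60, and its partner BCL10 was not called (log2 difference 0.65). The kinases CHUK, IKBKB and IKBKE were within 2-fold.

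A kappaB string, written GGGANTTNCC and searched on both strands, was found in the promoters of 8 of the 13 NF-kB genes called higher that had an entry (NFKB1, NFKB2, NFKBIA, NFKBIZ, BCL3, TNFAIP3, TNIP1 and CYLD). It was in 2 of the 12 members tested and not called, and in 2.13% of all genes tested with an entry. Many of these genes are textbook targets of NF-kB, and the match is a description of their sequence. The TNFAIP3 promoter (RefSeq, GRCh38.p14, plus strand, chr6:137867009-137867308) is shown for the gene of the list with the largest difference, with the kappaB string in capitals, read here on the opposite strand.
TNFAIP3: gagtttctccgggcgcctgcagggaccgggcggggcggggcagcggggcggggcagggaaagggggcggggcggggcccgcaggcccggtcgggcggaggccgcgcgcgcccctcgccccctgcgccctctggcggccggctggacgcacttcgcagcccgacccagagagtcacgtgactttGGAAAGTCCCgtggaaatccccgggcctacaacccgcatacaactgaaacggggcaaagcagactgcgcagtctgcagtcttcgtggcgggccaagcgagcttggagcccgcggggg

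Host genes known to be induced by Epstein-Barr virus in B cells were higher as a list by count: 23 of 27 tested were called higher and 0 lower, with a median log2 difference of 4.02. Of these, 8 passed the filter through 1 line alone, and the list shares TNFAIP3, NFKB2, BIRC3 and TRAF1 with the NF-kB list. The kappaB string was in 2 of the 19 genes of this list called higher that had a promoter entry. Those 2 were TNFAIP3 and NFKB2, which the NF-kB list holds as well. CD58, a ligand of T cell CD2, had 143, 151 and 150.1 CPM in Farage and 0.219, 0.127 and 0.100 CPM in SUDHL4 (log2 difference 7.02, SE 0.076, adjusted p = 1.58e-14). The costimulator CD80 had 177, 171 and 183 CPM in Farage and 2.04, 2.03 and 2.34 CPM in SUDHL4 (log2 difference 5.82, SE 0.071, adjusted p = 2.73e-14). CR2 (CD21), which is also the receptor of the virus, had 505, 501 and 511 CPM in Farage and 6.57, 6.998 and 6.13 CPM in SUDHL4 (log2 difference 6.07, SE 0.06, adjusted p = 9.11e-15). EBI3, a cytokine subunit first found as a gene induced by the virus, averaged 109 ± 6.14 CPM in Farage and 0.415 ± 0.213 CPM in SUDHL4. FCER2 (CD23) averaged 70.8 ± 1.6 and 2.22 ± 0.464 CPM, the chemokine CCL22 23.3 ± 0.207 and 0.0345 ± 0.0335 CPM, and CD70 121 ± 6.67 and 7.81 ± 1.31 CPM. CD40 and the adhesion molecule ICAM1 had log2 differences of 1.52 and 1.46. GPR183 (EBI2), CD83, DUSP22 and CD48 were not called (log2 difference 0.87, 0.83, 0.21 and -0.03). Whether the virus is involved in any of these levels was not tested, since no library of Farage without it is in the series.

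Genes of primary mediastinal B cell lymphoma overlapped in part with the same genes, and 13 of 18 tested were called higher with 1 lower (median log2 difference 3.33; 8 passed through 1 line). The amino acid oxidase IL4I1 averaged 141 ± 11.9 CPM in Farage and 1.62 ± 0.223 CPM in SUDHL4, and CD200 27.8 ± 0.876 and 0.0339 ± 0.00243 CPM. Of the ligands of PD-1, CD274 averaged 17.5 ± 0.294 CPM in Farage and 0.248 ± 0.0767 CPM in SUDHL4, and PDCD1LG2 2.46 ± 0.328 and 0.0704 ± 0.0655 CPM. JAK2, their neighbour on the same chromosome arm, averaged 82.9 ± 6.31 CPM in Farage and 26.0 ± 0.67 CPM in SUDHL4 (log2 difference 1.63). MAL, which pathologists use to mark that lymphoma, was below 1 CPM in all 6 libraries and was not tested.

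Other surface receptors and ligands followed the activated pattern in part. Of 19 costimulatory and TNF receptor genes tested, 12 were higher and 1 lower (median log2 difference 1.69, 6 passed through 1 line). TNFRSF9 (4-1BB) had 153, 159.6 and 157 CPM in Farage and 0.219, 0.190 and 0.0670 CPM in SUDHL4, and the death receptor FAS 153, 159 and 153 CPM in Farage and 4.52, 4.40 and 3.65 CPM in SUDHL4 (log2 difference 4.91, SE 0.077, adjusted p = 1.57e-13). CD27, the receptor of CD70, was the member called lower, at 45.1 ± 1.77 CPM in Farage and 114 ± 8.54 CPM in SUDHL4. Receptor and ligand thus moved in opposite directions, with CD70 higher and CD27 lower in Farage. Of 19 cytokine and chemokine genes, 12 were higher and 2 lower (7 passed through 1 line); 9 in all were called when a mean of 5 CPM or more was asked for. IL10, which dampens immune responses, had 9.66, 9.58 and 9.33 CPM in Farage and 0, 0.0633 and 0 CPM in SUDHL4, and LTA 61.7 ± 2.71 and 7.95 ± 1.27 CPM on average, whereas LTB was lower, at 18.2 ± 0.936 CPM in Farage and 48.8 ± 6.43 CPM in SUDHL4. Among 20 receptors of cytokines 11 were higher and 2 lower (5 passed through 1 line). IL2RB, the beta chain of the IL-2 and IL-15 receptors, had 163, 159.8 and 162 CPM in Farage and 0.219, 0.0633 and 0.569 CPM in SUDHL4, and the common gamma chain IL2RG was higher at a log2 difference of 1.18. TGFBR2 and IFNGR1 were lower, at log2 differences of -1.28 and -1.36. In the SLAM family 3 of 7 tested genes were called higher and 0 lower (limma; 4 higher and 0 lower at an adjusted p under 0.05 alone). SLAMF7 and SLAMF1 averaged 433 ± 15.1 and 288 ± 4.54 CPM in Farage and 1.82 ± 2.05 and 22.8 ± 1.77 CPM in SUDHL4. Replicate 3 held the highest of the SUDHL4 values of SLAMF7, 0.584, 0.697 and 4.19 CPM.

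Interferon-stimulated genes formed another large group on the Farage side. Interferons signal through JAK kinases to STAT factors and IRF9, which bind the interferon-stimulated response element of antiviral genes. Of 38 tested genes of the list, 29 were called higher and 2 lower, with a median log2 difference of 2.04; 18 of them passed the filter through 1 line alone. MX1, a GTPase that traps viral nucleoproteins, had 82.9, 77.5 and 73.9 CPM in Farage and 0.255, 0.190 and 0.167 CPM in SUDHL4 (log2 difference 6.04, SE 0.079, adjusted p = 4.69e-14). GBP4, a guanylate-binding protein, had 58.0, 61.5 and 57.1 CPM in Farage and 0.0365, 0 and 0 CPM in SUDHL4 (log2 difference 5.89, SE 0.076, adjusted p = 4.32e-14). IFIH1 (MDA5), a sensor of double-stranded RNA, had 70.2, 65.4 and 66.6 CPM in Farage and 0.511, 0.792 and 0.536 CPM in SUDHL4 (log2 difference 5.41, SE 0.087, adjusted p = 1.85e-13). All 3 were below 1 CPM in every SUDHL4 library. IRF1 averaged 99.1 ± 4.93 CPM in Farage and 16.0 ± 1.15 CPM in SUDHL4, and IRF9 65.0 ± 2.04 and 15.5 ± 0.751 CPM. The list was not uniform: ISG15, a ubiquitin-like protein, was lower, at 7.19, 8.23 and 5.93 CPM in Farage and 28.0, 24.7 and 19.6 CPM in SUDHL4 (log2 difference -1.62, SE 0.13, adjusted p = 3.32e-07), and so was the exonuclease ISG20 (log2 difference -1.17). OAS2 and STAT2 differed little (log2 differences 0.10 and 0.12), although OAS3 averaged 59.7 ± 1.79 CPM in Farage and 0.714 ± 0.156 CPM in SUDHL4. Of 13 interferon regulatory factors and sensors of nucleic acids, 8 were called higher and 0 lower (limma; 10 higher and 1 lower at an adjusted p under 0.05 alone). No interferon gene was in the lists, and no interferon protein was measured.

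The string GAAANNGAAA is the core of the response element and was searched on either strand. Promoters of 15 of the 21 interferon-stimulated genes called higher that had an entry held it. It was in 2 of the 4 such genes that were tested and not called, and in 4.22% of all genes tested with an entry. Of the host genes induced by Epstein-Barr virus and called higher, 3 of the 19 with an entry held it (FCER2, BCL2A1 and EPSTI1). IFIH1 (RefSeq, GRCh38.p14, minus strand, chr2:162318635-162318934) is shown as a sensor with a large difference, with each match in capitals.
IFIH1: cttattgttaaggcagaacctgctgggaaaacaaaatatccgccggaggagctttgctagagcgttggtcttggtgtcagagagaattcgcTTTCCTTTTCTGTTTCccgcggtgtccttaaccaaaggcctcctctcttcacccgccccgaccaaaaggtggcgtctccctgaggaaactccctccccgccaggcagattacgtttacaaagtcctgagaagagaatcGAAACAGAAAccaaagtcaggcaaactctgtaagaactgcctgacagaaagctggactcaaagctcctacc

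In the JAK-STAT list 9 of 16 tested genes were called higher and 0 lower (limma; 11 higher and 4 lower at an adjusted p under 0.05 alone). All 4 kinases were called higher, with log2 differences of 1.72 for JAK1, 1.63 for JAK2, 2.46 for JAK3 and 1.21 for TYK2. STAT4, which answers IL-12 and interferon in T cells, had 42.2, 49.1 and 46.0 CPM in Farage and 0.0365, 0 and 0 CPM in SUDHL4 (log2 difference 5.53, SE 0.083, adjusted p = 1.12e-13). STAT5A was called higher (log2 difference 1.77) and STAT5B was lower by less than 2-fold (log2 difference -0.64). SOCS1, the inhibitor that STATs induce, was at 7.70 and 9.47 CPM in Farage and SUDHL4 (log2 difference -0.26, not called), and SOCS2, SOCS3 and CISH were below the filter.

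**Figure D5:**
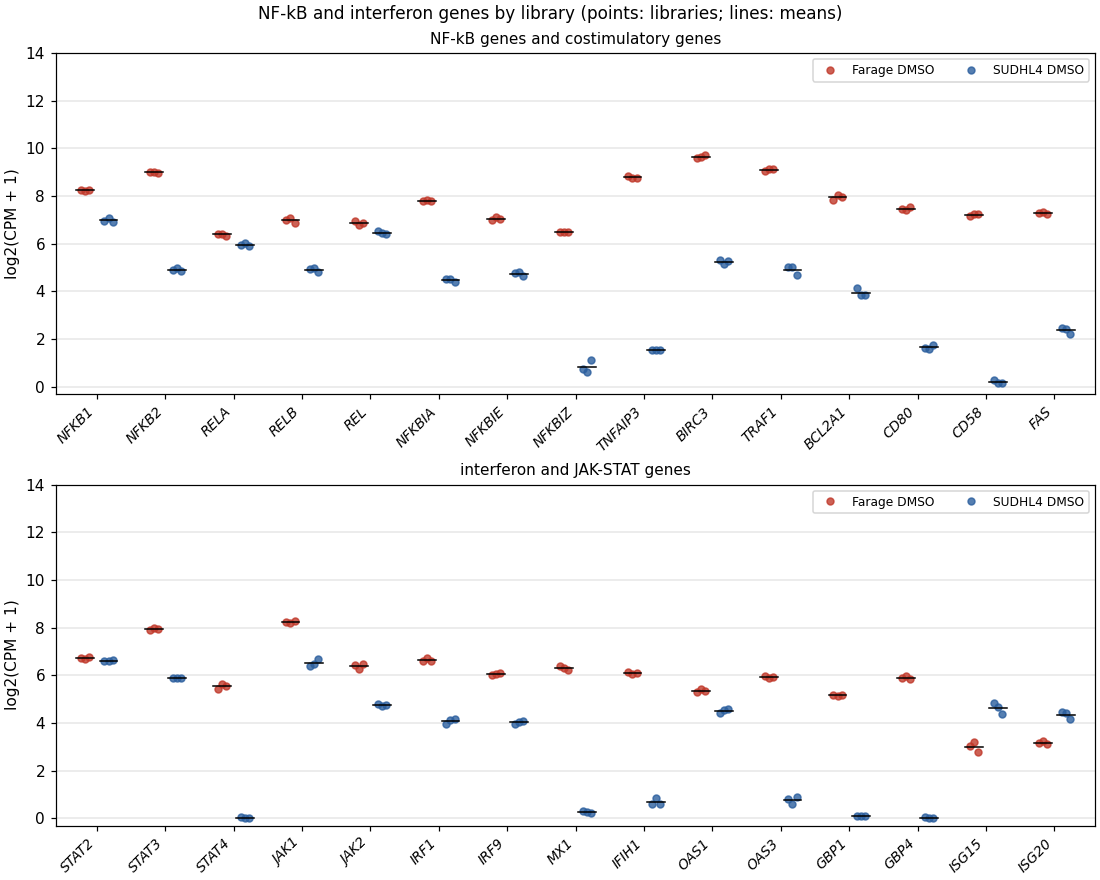
Log2(CPM + 1) in each library of NF-kB genes with BCL2A1, CD80, CD58 and FAS (top) and of interferon and JAK-STAT genes (bottom). Farage DMSO stands left (red) and SUDHL4 DMSO right (blue) for every gene. Points are libraries and black lines the means of 3. ISG15 and ISG20 lie lower in Farage, REL, RELA and STAT2 lie close in the lines, and TNFAIP3, CD58, MX1 and GBP4 lie near the bottom in SUDHL4 alone.

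B cell receptor signalling was divided between the lines. The receptor signals through CD79A and CD79B to the kinases LYN, SYK and BTK. Of 32 tested genes, 7 were higher and 10 lower in Farage, together 53.1% against 28.1% of all genes (median log2 difference -0.16). CD79B had 59.3, 70.7 and 66.9 CPM in Farage and 609.9, 592 and 512 CPM in SUDHL4 (log2 difference -3.10, SE 0.08, adjusted p = 9.04e-12), whereas its partner CD79A averaged 532 ± 16.6 CPM in Farage and 685 ± 44.4 CPM in SUDHL4, within 2-fold (log2 difference -0.36). SYK averaged 78.2 ± 2.05 CPM in Farage and 432 ± 31.2 CPM in SUDHL4 (log2 difference -2.45, SE 0.062, adjusted p = 7e-12). LYN and BTK were lower too, with log2 differences of -1.69 and -1.08, and the guanine exchange factor VAV3 had 0.780, 1.03 and 0.796 CPM in Farage and 34.8, 34.3 and 36.1 CPM in SUDHL4. CD79B, LYN, SYK and BTK were thus called lower in Farage, and CD79A of the same chain was not called. The members called higher included CR2, the Src kinase FYN (log2 difference 3.88), the lipid kinase subunit PIK3CD (log2 difference 2.19), VAV2 (log2 difference 1.11) and the adaptor BLNK (log2 difference 1.07). Of the pan-B markers, 5 of 12 were lower and 1 higher; MS4A1 (CD20) averaged 1722 ± 75 CPM in Farage and 3535 ± 121 CPM in SUDHL4.

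Receptors that place B cells in tissue differed in both directions. Of 23 genes tested, 10 were higher and 5 lower (6 passed through 1 line). CCR7, which draws B cells to the T cell zone, had 301, 307 and 304 CPM in Farage and 2.66, 3.07 and 3.48 CPM in SUDHL4 (log2 difference 6.23, SE 0.077, adjusted p = 3.11e-14). CXCR5, the receptor for entry into the follicle, averaged 227 ± 2.59 CPM in Farage and 90.7 ± 5.01 CPM in SUDHL4. CXCR4 was within 2-fold (log2 difference -0.39). The integrin chain ITGB1 was lower, at 23.4, 23.4 and 23.5 CPM in Farage and 182, 168 and 191 CPM in SUDHL4 (log2 difference -2.89, SE 0.062, adjusted p = 1.64e-12), and CCR6 averaged 0.682 ± 0.0425 and 7.34 ± 0.529 CPM. RGS1, a brake on chemokine receptors, averaged 389 ± 19.2 CPM in Farage and 8.86 ± 8.49 CPM in SUDHL4, where replicate 3 held the highest of 4.05, 3.86 and 18.7 CPM. Of 15 genes of Toll-like receptors and their adaptors 2 were higher and 2 lower, together 26.7%, near the 28.1% of all genes. TLR2 was higher (log2 difference 3.09). TLR9, the sensor of CpG DNA, was lower, at 14.5 ± 1.91 CPM in Farage and 42.5 ± 2.28 CPM in SUDHL4, and so was IRAK1 (log2 difference -1.70). Fc receptor-like genes were split, with FCRL3 and FCRL5 higher (log2 differences 2.23 and 1.95) and FCRL1 and FCRL2 lower (log2 differences -1.49 and -2.81).

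Corepressors and textbook targets of BCL6 were compared as well. None of 19 tested corepressors was called higher and 3 were called lower (limma; 4 higher and 12 lower at an adjusted p under 0.05 alone; median log2 difference -0.33). The deacetylase HDAC9 had 0.195, 0.106 and 0.181 CPM in Farage and 31.1, 32.2 and 28.5 CPM in SUDHL4 (log2 difference -4.76, SE 0.083, adjusted p = 3.19e-13), the corepressor CTBP2 2.60, 2.52 and 2.50 CPM in Farage and 40.9, 40.9 and 42.0 CPM in SUDHL4 (log2 difference -3.58, SE 0.071, adjusted p = 8.5e-13), and RCOR1 42.4 ± 0.984 and 132 ± 9.57 CPM on average. NCOR1 and HDAC3, known partners beside BCOR, were within 2-fold (log2 differences 0.29 and -0.12). Among 24 target genes, 10 were higher and 2 lower in Farage, together 50% against 28.1% of all genes (median log2 difference 0.90, 4 passed through 1 line). IRF4, CD80 and NFKB1 of the paragraphs above are among them. CDKN1A, the inhibitor p21, had 115, 115 and 107 CPM in Farage and 10.9, 10.9 and 13.8 CPM in SUDHL4 (log2 difference 3.15, SE 0.088, adjusted p = 1.78e-11), and CD44 averaged 14.96 ± 0.183 and 2.05 ± 0.377 CPM. PDCD4, an inhibitor of translation, went against the list, with 9.88 ± 0.247 CPM in Farage and 145 ± 16 CPM in SUDHL4. CHEK1 and ATR were within 2-fold (log2 differences 0.46 and -0.40). No link between BCL6 and any of these levels was tested.

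In the Polycomb complexes the catalytic subunits EZH1, EZH2, RING1 and RNF2 were within 2-fold. Of 13 PRC2 genes 2 were called higher and 0 lower, a share of 15.4% that is near the 16.3% of all genes called higher. EED, the subunit that reads the methyl mark, averaged 72.9 ± 1.55 CPM in Farage and 32.2 ± 1.64 CPM in SUDHL4 (log2 difference 1.15, SE 0.061, adjusted p = 5.86e-09), and PHF19 95.1 ± 0.801 and 44.3 ± 4.56 CPM (log2 difference 1.09). SUZ12 and the EZH2 relative EZH1 were within 2-fold (log2 differences 0.24 and -0.35), so that EED was higher and EZH2 lower in the same cells. Of 30 PRC1 genes 5 were higher and 7 lower, against shares of 16.3% and 11.8% over all genes. The ubiquitin ligases RING1 and RNF2 were within 2-fold (log2 differences 0.27 and 0.70). The CBX subunits were divided: CBX7 averaged 34.3 ± 0.339 CPM in Farage and 11.8 ± 2.29 CPM in SUDHL4, CBX2 6.45 ± 0.223 and 19.4 ± 2.1 CPM, and CBX8 was lower as given above, with CBX6 within 2-fold. KDM2B, which brings the BCOR form of PRC1 to CpG islands, had 373, 345 and 356 CPM in Farage and 104, 108 and 92.5 CPM in SUDHL4 (log2 difference 1.81, SE 0.066, adjusted p = 1.9e-10), while PCGF1 of the same form was within 2-fold (log2 difference 0.19). AUTS2, of a form linked to activation in the brain of mice, averaged 343 ± 15.5 CPM in Farage and 38.8 ± 2.67 CPM in SUDHL4. SCML2 was near absent from Farage, at 0.0325, 0.0355 and 0 CPM in Farage and 33.3, 34.8 and 34.4 CPM in SUDHL4 (log2 difference -5.10, SE 0.076, adjusted p = 1.04e-13).

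Among enzymes that write and erase chromatin marks, 5 of 37 were called higher and 0 lower, below the 16.3% and 11.8% of all genes (limma; 21 higher and 9 lower at an adjusted p under 0.05 alone). KDM5B, an eraser of H3K4 methylation, stood out at 72.3, 73.2 and 74.9 CPM in Farage and 3.65, 3.64 and 3.92 CPM in SUDHL4 (log2 difference 3.98, SE 0.068, adjusted p = 2.64e-13). CREBBP, EP300 and KDM6B were within 2-fold (log2 difference -0.21, -0.34 and 0.29). Of 15 DNA methylation genes 3 were higher and 2 lower, together 33.3%, near the 28.1% of all genes. TET2 was higher, at 57.8 ± 3.79 CPM in Farage and 9.98 ± 1.16 CPM in SUDHL4 (log2 difference 2.42), and DNMT1 was within 2-fold (log2 difference -0.44). TET3 was called higher at a log2 difference of 1.05 and lost the call without Farage replicate 1 or SUDHL4 replicate 3 (log2 difference just under 1 in each). Few developmental homeobox genes were expressed: 18 of 52 passed the filter, of which 3 were higher and 6 lower in Farage (8 passed through 1 line). HOXA10 averaged 6.18 ± 0.182 CPM in Farage and 0.0112 ± 0.0193 CPM in SUDHL4, and HOXB4 2.96 ± 0.199 and 12.9 ± 1 CPM. PITX1 had 0.228, 0.355 and 0.253 CPM in Farage and 42.4, 39.1 and 31.0 CPM in SUDHL4 (log2 difference -4.90, SE 0.11, adjusted p = 2.91e-12), and PBX4 had 27.6 and 0.271 CPM on average.

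Of 16 genes of the BCL2 family, 5 were called higher and 1 lower in Farage (median log2 difference 0.59). BCL2, whose gene is rearranged in SUDHL4, averaged 315 ± 10 CPM in Farage and 302 ± 21.5 CPM in SUDHL4 and was not called (log2 difference 0.07). BCL2A1, an NF-kB target, had 227, 266 and 251 CPM in Farage and 16.5, 13.4 and 13.3 CPM in SUDHL4 (log2 difference 4.02, SE 0.088, adjusted p = 2.1e-12), and BCL2L1, which encodes BCL-XL, averaged 127 ± 4.53 and 44.3 ± 5.97 CPM. The killer BCL2L11 (BIM) was lower, at 22.0, 20.8 and 23.1 CPM in Farage and 141, 142 and 155 CPM in SUDHL4 (log2 difference -2.67, SE 0.064, adjusted p = 4.6e-12), and another, BIK, was higher (log2 difference 3.39). Of 25 genes of death receptors and caspases, 11 were higher and 1 lower. CFLAR, which blocks caspase activation at death receptors, averaged 211 ± 2.01 CPM in Farage and 19.8 ± 0.175 CPM in SUDHL4. The inflammatory caspases CASP1 and CASP4 averaged 19.7 and 48.3 CPM in Farage and 0 and 1.92 CPM in SUDHL4. FDXR and DDB2 were called higher (log2 differences 2.38 and 2.07), while MDM2 and BAX were within 2-fold (log2 differences 0.75 and 0.69).

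Genes of mitosis and DNA replication were mostly not called. None of 28 mitotic genes was called in either direction (limma; 20 higher and 3 lower at an adjusted p under 0.05 alone), although MKI67 (log2 difference 0.93) was called higher without Farage replicate 2 (log2 difference 1.02). Of 27 replication genes, 2 were higher and 1 lower, together 11.1%, against 28.1% of all genes. POLE, called at a log2 difference of 1.03, lost its call with median-of-ratios scaling or edgeR (log2 difference 0.99 in each). Of 25 genes of G1 cyclins, their kinases and inhibitors, 5 were higher and 3 lower, together 32%, near the 28.1% of all genes. CCND1 had 40.2, 36.2 and 36.6 CPM in Farage and 1.06, 1.08 and 1.005 CPM in SUDHL4 (log2 difference 4.24, SE 0.078, adjusted p = 4.8e-13), and CCND3 averaged 255 ± 13.2 and 52.1 ± 5.45 CPM. RB1, the pocket protein that these cyclins inactivate, had 45.7, 42.8 and 45.9 CPM in Farage and 169.6, 165 and 181 CPM in SUDHL4 (log2 difference -1.92, SE 0.059, adjusted p = 4.29e-11), and E2F5 averaged 7.71 ± 0.308 and 59.5 ± 1.66 CPM. MYC, which drives growth, was the member called among 11 genes of its network. It was lower, at 175, 189 and 169 CPM in Farage and 404, 409 and 325 CPM in SUDHL4 (log2 difference -1.08, SE 0.085, adjusted p = 2.37e-07). None of 20 MYC target and ribosome biogenesis genes was called (limma; 7 higher and 6 lower at an adjusted p under 0.05 alone), and their median was 0.05.

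Of 24 genes of hypermutation and DNA repair, 10 were higher and 2 lower in Farage, together 50% against 28.1% of all genes (4 passed through 1 line). The outstanding gene was MSH6, at less than 0.1 CPM in every Farage library. PMS2, another mismatch repair gene, averaged 21.7 ± 1.51 CPM in Farage and 32.1 ± 2.92 CPM in SUDHL4 (log2 difference -0.54). The next tested gene beside MSH6 on chromosome 2 in the RefSeq gene table, FBXO11, was likewise at 0.0335 ± 0.0326 CPM in Farage and 78.8 ± 4.64 CPM in SUDHL4 (log2 difference -6.27, adjusted p = 3.72e-14). FBXO11 is a subunit of the ubiquitin ligase known to degrade BCL6. The outer neighbours KCNK12 and FOXN2 had log2 differences of -0.14 and 0.78. Copy number was not measured, so the state of the locus was not tested. In SUDHL6 MSH6 averaged 307 ± 22 CPM. The APOBEC3 cytidine deaminases, which act on viral DNA, were higher in Farage from APOBEC3B to APOBEC3H: APOBEC3G had 185, 209 and 200.5 CPM in Farage and 17.6, 19.3 and 15.8 CPM in SUDHL4 (log2 difference 3.43, SE 0.079, adjusted p = 3e-12), and APOBEC3F averaged 40.2 ± 0.419 and 2.70 ± 0.409 CPM. They are neighbours of similar sequence and can share reads, so their calls may not be independent of each other.

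Ribosomal protein genes were lower in Farage as a family. Of 72 tested, 37 were called lower and 0 higher (limma; 2 higher and 68 lower at an adjusted p under 0.05 alone), with a median log2 difference of -1.01. Their summed level was 33108 to 37785 CPM in the Farage libraries and 69625 to 71455 CPM in the SUDHL4 libraries. RPL35A had 469, 567 and 521 CPM in Farage and 2159.7, 2102 and 2163 CPM in SUDHL4 (log2 difference -2.05, SE 0.069, adjusted p = 9.36e-11), and RPS6 averaged 1826 ± 153 and 4375 ± 19 CPM. RPLP0, RPLP1 and RPS19 did not follow (log2 difference -0.04, 0.27 and 0.17). Under the alternative settings that were run, scalings included, the median log2 difference lay between -1.08 and -0.98. These genes are short and have processed copies elsewhere in the genome that can take their reads; RPL21 is listed at 0 in all 6 libraries. Over 497 genes under 1000 bases with a mean of at least 100 CPM the median log2 difference was 0.07 (52 called higher, 39 lower); the part of length and of shared reads in the ribosomal protein values was not tested. Respiratory chain genes had a median log2 difference of -0.19, with 1 of 38 called lower and 0 higher (2.63%, against 28.1% of all genes called).

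Metabolic and stress genes showed single large differences rather than shared ones. PHGDH, which starts serine synthesis, had 136, 141 and 131 CPM in Farage and 0.109, 0.0950 and 0.100 CPM in SUDHL4 (log2 difference 6.96, SE 0.072, adjusted p = 1.26e-14), whereas PSAT1 and PSPH, the following steps, were within 2-fold (log2 differences 0.33 and -0.72) and SHMT2 was lower (log2 difference -1.25). The glucose transporter SLC2A3 averaged 29.3 ± 1.72 CPM in Farage and 1.08 ± 0.101 CPM in SUDHL4, and the hexokinase HK2 33.8 ± 0.507 and 116 ± 6.19 CPM. HMOX1, which degrades haem, had 42.1, 46.0 and 43.4 CPM in Farage and 0.547, 0.475 and 0.469 CPM in SUDHL4 (log2 difference 4.90, SE 0.077, adjusted p = 1.59e-13), and the chaperone HSPA4L averaged 73.5 ± 2.27 and 4.23 ± 0.103 CPM. Of 28 glycolysis and hypoxia genes 3 were higher and 3 lower, together 21.4%, against 28.1% of all genes.

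The stress lists depended in part on SUDHL4 replicate 3. In the list of the ATF4 response to amino acid shortage 7 of 25 genes were higher and 3 lower, and 8 and 1 without that library. Heat shock genes gave 3 higher and 2 lower of 16, and 3 and 0 without it. Genes of the oxidant-sensing factor NRF2 gave 4 higher and 0 lower of 16 (limma; 8 higher and 3 lower at an adjusted p under 0.05 alone), and 6 and 0 without it. With all libraries 40% of the tested ATF4 genes, 31.2% of the heat shock genes and 25% of the NRF2 genes were called. Over all genes tested the share was 28.1%. The summed ATF4 list held 3204 to 3365 CPM in Farage, and 2717, 2776 and 3336 CPM in SUDHL4 replicates 1, 2 and 3. DDIT3 (CHOP) was at 10.9, 11.5 and 12.5 CPM in Farage and 16.9, 16.2 and 66.3 CPM in SUDHL4 and was called lower (log2 difference -1.12, adjusted p = 0.0216), but without that library its log2 difference was -0.47. DNAJB4 and TRIB3 had log2 differences of -1.15 and -1.15 with all libraries, and of -0.51 and -0.88 without it, where neither was called. HSPA1B, called at the fold limit with all libraries, was at -0.38 on the same scale without it. DDIT3, DNAJB4 and HSPA1B also lost their calls with no filter or without any single Farage library. SLC7A11, the cystine transporter, was at 46.1, 44.5 and 49.5 CPM in Farage and 10.9, 10.7 and 86.5 CPM in SUDHL4 (log2 difference 1.05, adjusted p = 0.118, not called), and was called higher without that library (log2 difference 2.02, adjusted p = 7.44e-14). HSPA1A and HSPA1B are a near-identical pair that share reads. ATF3, a stress-induced transcription factor, was called higher with that library (log2 difference 2.80) and without it (log2 difference 3.58). SQSTM1, called higher at a log2 difference of 1.07 (adjusted p = 0.0191), lost its call in edgeR (adjusted p = 0.0804) and DESeq2 (adjusted p = 0.256), without the filter on low values (adjusted p = 0.0554), and when any single library other than SUDHL4 replicate 3 was left out (adjusted p of 0.0549 to 0.0913). Without SUDHL4 replicate 3 it was called (log2 difference 1.68, adjusted p = 7.88e-14). Of 10 tested genes that the inhibitor raised most in this series, 5 were higher and 3 lower in Farage (3 passed through 1 line), and 6 and 1 without that library; they were picked on results that include these same DMSO libraries, so the count is a description only.

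Some genes had no read at all in one line. In Farage 40 tested genes had none while SUDHL4 held at least 1 CPM, and in SUDHL4 132 had none while Farage held at least 1 CPM. A bound on the fold was taken against 3 reads in the shallowest library of the silent line. DCN, a matrix proteoglycan of connective tissue, had 0 reads in Farage and 66.6, 61.2 and 59.0 CPM in SUDHL4, at least 577-fold lower in Farage. ALKBH3, a demethylase that repairs alkylated DNA, was at least 177-fold lower in Farage (19.1 CPM in SUDHL4), and the adaptor SLA at least 175-fold. In the other direction SVIP, an inhibitor of protein degradation at the endoplasmic reticulum, had 40.4, 41.7 and 41.7 CPM in Farage and 0 reads in SUDHL4, at least 379-fold higher in Farage. The integrin chain ITGB3 was at least 328-fold and the caveolin CAV1 at least 268-fold higher in Farage, at 35.7 and 29.3 CPM. Of 10 markers of connective tissue and endothelium, DCN and PECAM1 were lower and COL1A1 was higher in Farage (6.48 ± 0.947 CPM in Farage and 0.0106 ± 0.0183 CPM in SUDHL4), and the rest were below the filter; all 3 passed through 1 line. The sum of the 10 was 5.64 to 7.41 CPM in Farage and 63.3 to 70.2 CPM in SUDHL4, most of it DCN in SUDHL4.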

How the data were processed

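The deposited values are CPM per gene symbol, 1 file per library, made by the authors with STAR on hg19 per the submitters' processing notes; the labels give a TruSeq RNA kit on total RNA and name Rsubread once. The sources used here give no tool version, strand setting or annotation release, so overlapping and antisense genes cannot be told apart. Divided by the value of 1 read, 100% of the deposited CPM were whole numbers within 0.01.

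The 11932 genes that reached 1 CPM in 3 or more of the 6 libraries were tested with limma 3.58.1 (trend, 4 residual degrees of freedom, Benjamini-Hochberg adjustment over all genes tested) in R 4.3.3 on log2(CPM + 1). Recovered reads gave alternatives in edgeR 4.0.16 (quasi-likelihood) and DESeq2 1.42.0. The scripts were tested on simulated data. The 51 gene lists hold 1074 different genes, some of them in several lists. Of these genes 1071 were found, 17 of them by another symbol, and KMT2B, KMT2D and EZHIP were not matched. Members and lists were chosen with earlier results of these data known. Genes are named by rule: the 4 series genes; per direction the 15 largest called differences with libraries that do not overlap and at least 5 CPM in the higher line; per list up to 4 called members a direction and 2 not called; and per line up to 10 genes without a read that average at least 10 CPM in the other line. Other list members, FBXO11 and the MSH6 neighbours were named after their values were seen. The floor of 3 reads covers counting error only. Promoters and symbols were matched to RefSeq (GRCh38.p14) and lengths to GENCODE 29; no coordinate of the files was used. Levels are not compared between genes, since CPM is not per length. XIST, Y-linked genes and some other list members are not reported here.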

Additional observations from a re-analysis of the deposited data

How the results depend on the processing

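Without a fold requirement 5126 genes were higher and 4508 lower in Farage at an adjusted p under 0.05, against 1942 and 1405 with it. Leaving out each library in turn gave 1934 to 1959 higher and 1400 to 1446 lower. The other settings gave 1361 (mean of at least 5 CPM, 9750 genes tested) to 2404 (limma's treat against 1.5-fold) higher and 1025 to 1920 lower in the same 2 settings; edgeR gave 2078 and 1738, DESeq2 2094 and 1721, median-of-ratios scaling 1890 and 1482, a pseudocount of 0.25 2111 and 1592, no filter 1964 and 1411, and all 9 DMSO libraries in 1 fit 1942 and 1404. Of the calls tested in each alternative other than treat, 97.8% to 100% were kept and none reversed. The replicate numbers do not pair the libraries: same-numbered libraries had correlations of deviations of -0.04, 0.07 and 0.19, and not each correlated best with its own number. With the replicate block 1943 genes were higher and 1405 lower, and among the named genes the block changed the call of SLC7A11 (adjusted p = 0.0139).

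Of 319 named genes tested, 18 changed their call under a setting that kept the rule of adjusted p and 2-fold, and none reversed; single genes were not followed under treat or with no fold asked for. The myeloid and NK cell markers ITGAM and PRF1 moved far: ITGAM had a log2 difference of 0.91 with a pseudocount of 1 and of 1.73 with 0.25, 2.42 in edgeR and 2.45 in DESeq2, and PRF1 0.93, 1.37, 1.57 and 1.59. Only the added constant differed between the pseudocounts, and it shrinks the differences of weakly expressed genes, as stated above. What else moved the values in edgeR and DESeq2 was not tested. For gene lists, a mean of at least 5 CPM left 9 of 14 called cytokines, 3 of 5 DNA methylation genes and 5 of 9 homeobox genes, with fewer genes tested. Called heat shock genes went to 3 of 5 with no filter, without any single Farage library or without SUDHL4 replicate 3. Medians of Fc receptor genes (-0.59 to 0.05), MYC targets (-0.03 to 0.09) and glycolysis and hypoxia genes (-0.10 to 0.07) crossed 0, so no direction is given for these lists. Other medians kept their sign but moved by over 1.5 times. Those of costimulatory genes lay between 0.77 (no filter) and 3.91 (DESeq2), and of primary mediastinal genes between 2.23 (no filter) and 5.05 (DESeq2). That of interferon-stimulated genes reached 3.82 (DESeq2). That of HLA class II genes was -1.72 with no filter, and that of B cell transcription factors 0.11 in edgeR and DESeq2. Medians also moved that far for SLAM genes (0.02 to 1.44), cytokines (0.76 to 2.92), JAK-STAT genes (0.61 to 1.33) and migration receptors (0.15 to 0.76). So did those of hypermutation and repair (0.24 to 0.52), homeobox (-0.77 to -0.01), DNA methylation (-0.29 to -0.08) and inhibitor-raised genes (0.23 to 1.49). The rest were heat shock genes (-0.19 to -0.01), ATF4 genes (0.06 to 0.21) and the G1 cyclin list (0.01 to 0.08). With 3 libraries a line, near-identical genes and genes under about 0.1 CPM are the least certain.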

Other observations

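Genes called in the same direction stood side by side on several chromosomes, by the gene order of RefSeq (GRCh38.p14) among the tested genes with a position (10386, or 87%). On chromosome 1 the complement regulators and receptors CD55, CR2, CR1, CR1L and CD46, with LAMB3, formed a run of 6 genes higher in Farage (median log2 difference 2.02), and the guanylate-binding proteins GBP3, GBP1, GBP2, GBP4 and GBP5 a run of 5 (median 4.15). PGM1, ROR1, JAK1, AK4, DNAJC6, LEPR, LEPROT and PDE4B, also on chromosome 1, were a run of 8 (median 1.81), and so were ABCA10 to SSTR2 on chromosome 17, with the cartilage factor SOX9 (median 2.85, up to 7.22). MDFIC, TFEC, TES, CAV1 and the receptor MET were 5 neighbours on chromosome 7 (median 3.99), and HERPUD1 and NLRC5 belonged to 5 on chromosome 16 (median 2.68). In the other direction the lipid-presenting CD1D, CD1A and CD1C stood with FCRL2 and FCRL1 (median -1.88), and LRP1, NXPH4, SHMT2, STAC3 and R3HDM2 formed a run on chromosome 12 (median -2.26). Related genes of such runs can share reads, and DNA copy number was not measured.

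Over whole chromosomes the median log2 difference ran from -0.42 on chromosome 7 (479 genes) and -0.39 on chromosome 13 (180 genes) to 0.29 on X (339 genes). Chromosome 13 had 23.3% of its genes called lower and 11.1% higher in Farage, against 11.8% and 16.3% over all genes tested. Chromosomes 8 (20.5% lower, 13.6% higher), 12 (19.3% and 14.1%) and 7 (17.7% and 13.6%) leaned the same way. Each of the remaining chromosomes had more genes called higher than lower. On chromosome 18 the margin was 24 against 23 of 138 genes, with a median log2 difference of -0.27. RB1, lower in Farage, lies on chromosome 13. These medians are descriptions of 1 line against another.

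The third line, whose replicate 3 holds only 7359083 reads in genes, places some differences. IRF4 averaged 335 CPM in Farage and 0.927 CPM in SUDHL4, with 26.1, 31.2 and 111 CPM in the SUDHL6 DMSO libraries. TNFAIP3 averaged 439.9 CPM in Farage and 1.90 CPM in SUDHL4, with 6.70, 9.17 and 9.42 CPM in SUDHL6. BACH2 averaged 1.002 CPM in Farage and 153 CPM in SUDHL4, with 211, 131 and 14.4 CPM in SUDHL6, where the libraries of 1 group differ widely. MME averaged 16.2 CPM in Farage and 247 CPM in SUDHL4, with 171, 177 and 98.5 CPM in SUDHL6. PHGDH averaged 136 CPM in Farage and 0.102 CPM in SUDHL4, with 172, 249.9 and 202 CPM in SUDHL6. For PHGDH SUDHL4 was the line with little, and for TNFAIP3 Farage was the line with much.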
